A study of Mus musculus with 2 samples.

Results

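Homeobox genes encode transcription factors that bind DNA through a homeodomain. The 51 genes described here are Msx1, Msx2, Msx3 and 48 further members of the homeobox family outside the Hox clusters, out of 18193 genes with their own probe sets. The list was drawn up by gene family, with no threshold on their signals, and each of the 112 probe sets annotated to a single one of them was read separately, out of 34945 probe sets with 1 gene symbol. The groups were 1 array of uterine stromal cells from Msx1Msx2-null C57BL/6 mice and 1 array of the same cells from Msx1Msx2 floxed control C57BL/6 mice, both taken on day 4 of pregnancy after mating with fertile males. In the null mice the floxed Msx1 and Msx2 genes were removed by the PRcre line, in which Cre recombinase is made where the progesterone receptor gene is active. That includes epithelium and muscle of the uterus as well as stroma, and the ages of the mice are not given in the sources used here. Stromal cells were released with collagenase after a dispase and pancreatin digest had taken off epithelial clumps. The design text gives 5 mice per genotype and the extraction protocol 4, and RNA was pooled within each genotype, so every value below is 1 measurement of a pool without replicate error.

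Msx1 and Msx2 act mainly as transcriptional repressors and are best known as targets and mediators of bone morphogenetic protein (BMP) signalling. Msx1 is made in the mouse uterus before implantation and declines when the embryo attaches, and uteri without both genes fail to implant embryos. The related Dlx proteins recognise nearly the same DNA core and often act in the opposite direction, while Pbx, Meis and Pknox proteins, which belong to the TALE class of homeodomains, bind DNA together with Hox proteins. Many homeodomains, those of Msx and Dlx proteins among them, contact DNA that contains the letters TAAT.

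The bases before the start of 4 of the genes are shown because they are the promoters, among those in the RefSeq table, of the genes with the largest differences: both targeted genes, Prrx1 with the largest higher ratio and Hhex with the largest lower ratio on the brightest probe set outside Msx1 and Msx2. Each is the 250 bases upstream of the start, 5′ to 3′ on the gene's strand in build GRCm38.p6, with every TAAT or its reverse complement ATTA in capitals. Msx1 is on chr5:37824586-37824835 (minus strand), Msx2 on chr13:53472781-53473030 (minus strand), Prrx1 on chr1:163313651-163313900 (minus strand) and Hhex on chr19:37434591-37434840 (plus strand).
Msx1: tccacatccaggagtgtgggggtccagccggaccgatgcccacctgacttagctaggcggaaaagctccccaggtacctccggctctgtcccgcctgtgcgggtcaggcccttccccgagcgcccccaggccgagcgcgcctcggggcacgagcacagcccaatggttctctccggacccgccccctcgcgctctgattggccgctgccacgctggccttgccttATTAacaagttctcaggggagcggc
Msx2: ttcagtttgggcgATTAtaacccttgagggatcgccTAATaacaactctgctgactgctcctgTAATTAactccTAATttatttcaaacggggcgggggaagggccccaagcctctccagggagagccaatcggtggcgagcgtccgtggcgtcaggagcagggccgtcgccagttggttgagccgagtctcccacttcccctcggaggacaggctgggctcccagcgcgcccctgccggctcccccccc
Prrx1: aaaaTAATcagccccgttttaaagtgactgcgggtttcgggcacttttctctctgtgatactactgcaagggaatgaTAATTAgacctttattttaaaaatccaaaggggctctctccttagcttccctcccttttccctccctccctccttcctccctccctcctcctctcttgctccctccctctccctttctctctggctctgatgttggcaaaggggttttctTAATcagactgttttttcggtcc
Hhex: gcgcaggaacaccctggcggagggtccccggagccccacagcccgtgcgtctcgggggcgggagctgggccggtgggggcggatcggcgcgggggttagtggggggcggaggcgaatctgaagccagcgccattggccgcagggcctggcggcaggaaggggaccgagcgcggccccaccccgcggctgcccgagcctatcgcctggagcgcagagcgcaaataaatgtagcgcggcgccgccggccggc

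The core occurred once upstream of Msx1, starting 25 bases before the start, and 5 times upstream of Msx2, counting both strands and overlaps. It occurred 4 times upstream of Prrx1 and 0 times upstream of Hhex, whose sequence was 76.0% G or C against 47.6% for Prrx1. Msx2 and Prrx1 each held the palindrome TAATTA, in which a TAAT and an ATTA overlap. Over all 32841 promoters of the table, 54.9% held TAAT on either strand and 4.84% held TAATTA, and of the 51 promoters listed for 35 of the homeobox genes 49.0% and 3.92% did. A longer core with a strong Msx preference, TAATTG (reverse complement CAATTA), was in 7.17% of all promoters and in 5.88% of those of the homeobox genes, and in none of the 4 sequences shown. These are matches of letters, and no binding was measured.

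Signals are in MAS5 units, and those of different probe sets cannot be ranked against each other. A floor, used because detection calls were not available, was the median signal of the non-control probe sets, 30.1 in the null array and 31.0 in the control array; a signal under it does not show that a gene is silent. Of the 112 probe sets, 55 were above both floors, 4 in the control array only, 0 in the null array only and 53 in neither. Over all 34945 probe sets with 1 symbol these numbers were 18699, 941, 875 and 14430. A probe set above the floor in the control array only had to come out lower, and its fold is a lower bound. As a scale of noise, the difference between the log2 ratios of a gene's 2 brightest probe sets gave an SD of 0.27 for a single probe set over 4690 genes, or 0.32 in the dimmest and 0.21 in the brightest tertile. Variation among mice, pools and hybridizations is not part of it. Actb, a check of RNA integrity, had a 3′ to 5′ signal ratio of 2.33 in the null and 1.80 in the control array, and Gapdh one of 1.28 and 0.967.

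Msx1 and Msx2, the targeted genes, were low in the null array. Msx1 probe set 1448601_s_at had a signal of 23.0 in the null array against 1581 in the control array, at least 52.6-fold lower. Msx1 probe set 1417127_at had 2.64 in the null array against 414 in the control array, at least 13.8-fold lower. Both Msx1 signals were thus under the floor in null cells, and the annotation ties both probe sets to the same transcript record.

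Msx2 was near the limit of measurement in control cells as well. Probe set 1449559_at had a signal of 14.5 in the null array against 63.7 in the control array, at least 2.12-fold lower, and it fell short of a higher floor set at the 65th percentile. The second Msx2 probe set, 1438351_at, had 2.85 in the null array and 15.9 in the control array and was under the floor in both. Msx3, the neural member of the family, had 8.23 in the null array and 2.35 in the control array on its single probe set, also under the floor, so no signal of the third Msx gene was measured in either pool. Whether the probe sets of Msx1 and Msx2 lie inside the deleted parts of the genes is not given in the sources used here.

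**Figure D1:**
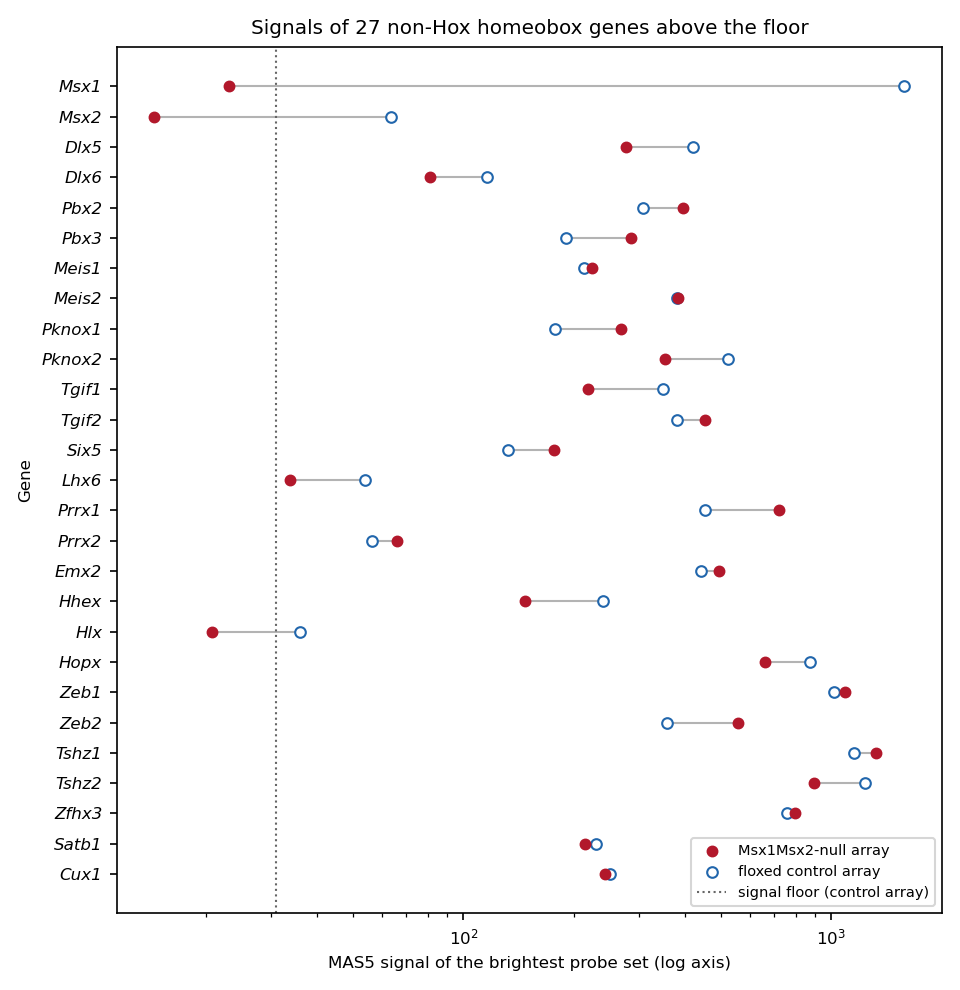
Signal of the brightest probe set of the 27 homeobox genes with at least 1 signal above the floor, on a log axis, with the null array as filled and the control array as open circles and the control floor as a dotted line. Msx1, Msx2 and Hlx are the genes whose null signal lies left of the floor, and the other 24 genes are to its right in both arrays.

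None of the 51 homeobox genes besides the targeted pair passed 2-fold. Of the 59 probe sets above the floor in at least 1 array, 3 were at least 2-fold lower and 0 at least 2-fold higher in the null array, all 3 being probe sets of Msx1 and Msx2. The share called over all 20515 such probe sets of the arrays was 3.15% (1.84% lower and 1.31% higher). The nearest miss was Prrx1 probe set 1432129_a_at at 1.99-fold higher, and after quantile normalization it crossed the threshold, which gave 1 higher and 3 lower. Counted over genes by the brightest probe set, 2 of 27 were lower and 0 higher, against 3.39% of all 11833 genes (1.80% lower and 1.59% higher). The median log2 ratio of the 55 probe sets above both floors was 0.07, with 32 positive and 23 negative, against -0.01 over all 18699 such probe sets.

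At the smaller size of 1.5-fold the share of genes past the threshold was above that over the arrays, but on few genes. The number that was higher depended on how the probe sets of a gene were combined. Leaving aside Msx1 and Msx2, 8 of 25 genes (32.0%) were past it by their brightest probe set, against 13.7% of all genes (6.79% higher and 6.92% lower). The 4 higher were Prrx1, Zeb2, Pknox1 and Pbx3, and the 4 lower were Hhex, Tgif1, Lhx6 and Dlx5. With the median over all probe sets of a gene the number was 5 of 25 (20.0%), against 12.4% of all genes (5.97% higher and 6.46% lower), and Prrx1 was the single higher gene left, with the lower genes Dlx5, Hhex, Lhx6 and Tgif1. Each of the 4 lower genes had 1 probe set above the floor, so the median could not alter them. With a constant of 30 added, the log2 ratios of Lhx6, Dlx5, Pknox1 and Pbx3 were -0.40, -0.55, 0.52 and 0.53, short of 1.5-fold. Those of Hhex, Tgif1, Prrx1 and Zeb2 were -0.61, -0.61, 0.64 and 0.60, still past it. The list was chosen with earlier results of these data known, and whether its share differs from that of the arrays was not tested.

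**Figure D2:**
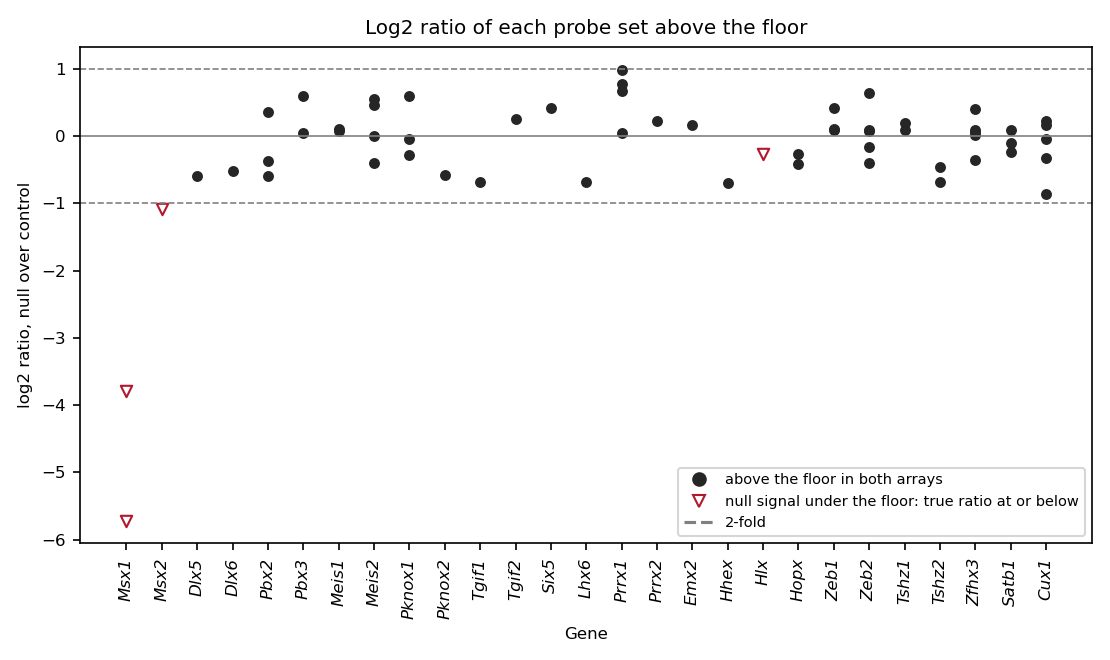
Log2 ratio of null over control for each of the 59 probe sets above the floor, by gene. Filled circles were above both floors, open triangles are probe sets whose null signal was under it and was raised to it, and dashed lines mark 2-fold. The 3 triangles below the lower line are Msx1 and Msx2, and the probe sets of Cux1, Zeb2, Meis2 and Pbx2 spread to both sides of 0.

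The Dlx genes lie in the genome as neighbouring pairs, Dlx1 with Dlx2, Dlx3 with Dlx4 and Dlx5 with Dlx6, with 0 protein-coding genes between the partners. The pair that was measured, Dlx5 and Dlx6, was lower in the null array on both genes. Dlx5 had a signal of 277 in the null array against 420 in the control array, 1.51-fold lower. Dlx6 had 81.3 in the null array against 116 in the control array, 1.43-fold lower. Their log2 ratios of -0.60 and -0.51 were similar, and each gene had 1 probe set. Dlx1, Dlx2, Dlx3 and Dlx4 were under the floor on all 6 of their probe sets, with signals of 1.08 to 10.4 in the null and 0.218 to 11.5 in the control array.

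In the mouse uterus Dlx5 and Dlx6 are made by epithelium, and epithelial RNA was present in both pools. Of 14 epithelial markers on the array 13 were above both floors, 4 higher and 9 lower in null cells, with a summed signal of 10960 in the null and 14020 in the control array. Their median log2 ratio was -0.10, and single markers went both ways. The stem cell glycoprotein gene Prom1 had 911 in the null and 2570 in the control array and the keratin gene Krt18 had 1350 and 2822, both past 2-fold lower. The keratin gene Krt19 had 724 in the null and 353 in the control array, past 2-fold higher, and the tight junction gene Cldn7 had 911 and 483. The adhesion gene Epcam was close, with 940 in the null and 987 in the control array. All 8 markers of uterine glands were at least 2-fold lower, with a summed signal of 617.8 in the null and 8876 in the control array. Within these sums Spink1 alone had 85.2 in the null and 4657 in the control array. Ttr, Prss29 and Prss28 were under the floor in the null array, so their direction was fixed by the floor. None of the epithelial and gland markers had a signal of 0, and Ovol2, a repressor that maintains epithelium, was under the floor in both arrays. In pooled tissue fewer cells of a type and less RNA per cell cannot be told apart, and the part of epithelial RNA in the Dlx5 and Dlx6 values was not tested.

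All 8 TALE class genes were above both floors, 6 with a positive and 2 with a negative ratio on the brightest probe set, and 0 passed 2-fold. Tgif1, a corepressor that limits transforming growth factor beta and retinoid responses, had a signal of 218 in the null against 350 in the control array, 1.60-fold lower on its 1 probe set. Its relative Tgif2 had 454 in the null against 381 in the control array, a log2 ratio of 0.25. The Hox cofactor genes Meis1 and Meis2 were close in both pools, with log2 ratios of 0.07 and 0.01 on the brightest probe set.

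Probe sets of the same TALE gene often disagreed. Pknox1, a partner of Pbx proteins, had 268 in the null against 177 in the control array on probe set 1437470_at, 1.51-fold higher, but log2 ratios of -0.05 and -0.27 on the other probe sets above the floor. Meis2 ranged from -0.40 to 0.55 over 4 probe sets. Pbx2 had 395 in the null against 308 in the control array on its brightest probe set, a log2 ratio of 0.36, and -0.59 and -0.37 on the others. For these genes the sign therefore depended on the probe set.

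The remaining TALE genes with more than 1 probe set above the floor, Pbx3 and Meis1, did not disagree in sign. Pbx3 had 286 in the null against 190 in the control array, 1.51-fold higher, and 81.6 against 78.9 on its second probe set, a log2 ratio of 0.05. Pknox2 had 352 in the null against 523 in the control array, 1.49-fold lower, on the 1 of its probe sets above the floor. Meis1 gave 0.11 on its second probe set above the floor.

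Prrx1 was higher in the null array on each of the 4 probe sets above both floors. This gene, a transcription factor of limb and craniofacial mesenchyme that also marks fibroblasts, had a signal of 720 in the null against 453 in the control array on its brightest probe set, 1.59-fold higher. The other signals were 266 in the null against 155 in the control array, 87.7 against 44.1 and 149 against 144. The log2 ratios were 0.67, 0.78, 0.99 and 0.05, so 3 of the 4 lay above the single probe set SD of 0.27 and 1 did not. The annotation ties the probe sets with 0.67 and 0.78 to the same transcript record. Another probe set of that record was under both floors, with 24.6 in the null and 25.8 in the control array. The probe set with 0.99 was the dimmest of the 4, and its ratio was 0.10 with a floor at the 65th percentile. Prrx2, its close relative, had 66.1 in the null against 56.5 in the control array, a log2 ratio of 0.23.

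All 12 stromal markers were above both floors, 8 with a positive and 4 with a negative ratio, with a median log2 ratio of 0.10. Their summed signal was 63700 in the null and 61360 in the control array, and 0 had a signal of 0. The defining fibroblast gene Pdgfra had 3371 in the null against 3280 in the control array, and the extremes were Hoxa11 at 0.80 and Vim at -0.32. The markers of the labelled cell type were thus all present, beside the epithelial transcripts given above. The brightest Prrx1 ratio of 0.67 lay near the top of the range of the stromal list, under Hoxa11 alone and above the median of 0.10. Smooth muscle markers were higher as well, 7 of the 8 above both floors, with summed signals over 9 genes of 14600 in the null and 10930 in the control array; their part in the Prrx1 values was not tested.

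Hhex and Hlx, homeobox genes of the blood and vessel lineages among other tissues, were lower in the null array. Hhex, which is made in endothelium and liver, had a signal of 147 in the null against 240 in the control array, 1.63-fold lower on its 1 probe set. Hlx had 20.7 in the null against 36.0 in the control array, at least 1.20-fold lower, a direction fixed by the floor. All 14 endothelial markers were above the floor and lower in the null array, with log2 ratios from -0.89 for Emcn to -0.12 for Cldn5 and a median of -0.55. Their summed signal was 5574 in the null and 8174 in the control array, and none was at 0. The Hhex log2 ratio of -0.70 lay inside that range, and the part of endothelial RNA in it was not tested. Emx2, which is required to build the urogenital tract, had 495 in the null against 443 in the control array, a log2 ratio of 0.16. The other genes of this group, Emx1, Barx1 and Barx2, were under the floor, at 0.82 to 6.63 in the null and 1.02 to 5.42 in the control array.

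**Figure D3:**
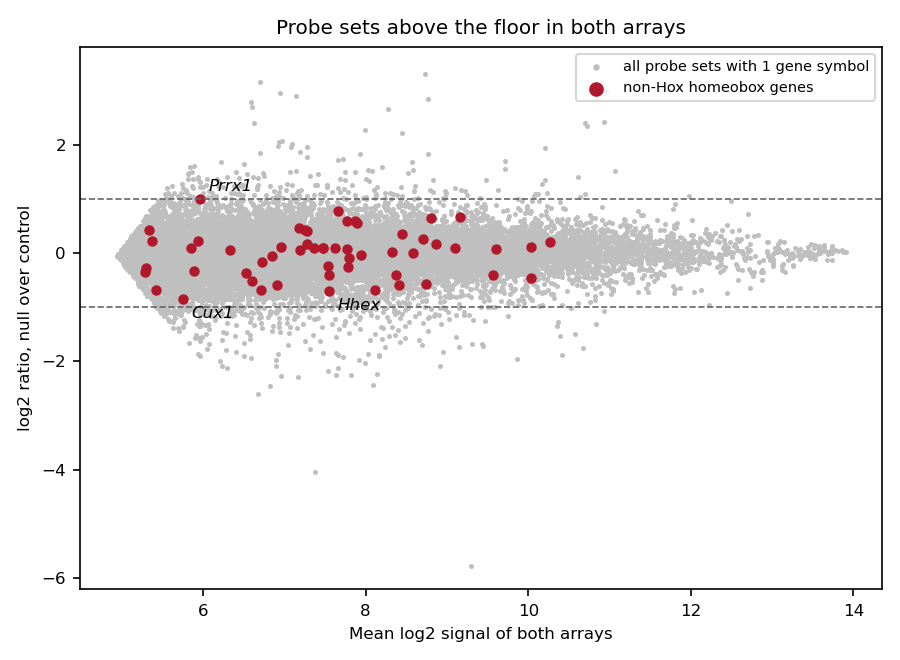
Log2 ratio of null over control against mean log2 signal for all 18699 probe sets above both floors (grey) and the 55 of the homeobox genes (red), with dashed lines at 2-fold. All 55 lie between the dashed lines, from -0.86 for a dim Cux1 probe set to 0.99 for a dim Prrx1 probe set; Msx1 and Msx2 are not plotted because their null signals were under the floor.

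Among the zinc finger homeobox genes, 4 had a positive and 1 a negative ratio on the brightest probe set. Zeb1 and Zeb2 encode repressors of E-cadherin that keep cells mesenchymal. Zeb1 had 1090 in the null against 1015 in the control array, a log2 ratio of 0.10, with 0.09 and 0.42 on the other probe sets. Zeb2 had 556 in the null against 357 in the control array on probe set 1422748_at, 1.56-fold higher. Its other 4 probe sets gave 0.08, 0.09, -0.40 and -0.16, so the brightest stood apart from the rest. Macrophages also make Zeb2, and of their 12 markers 11 were above both floors and lower in null cells, with summed signals of 7642 in the null and 10530 in the control array and none at 0; their part in the Zeb2 values was not tested.

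The teashirt genes went apart. Tshz1 had 1320 in the null against 1151 in the control array, a log2 ratio of 0.20, and 0.09 on its second probe set. Tshz2 had 897 in the null against 1232 in the control array, 1.37-fold lower, and its dimmer probe set had 82.8 against 132, 1.60-fold lower. The ratios of Tshz2, the 2 being -0.46 and -0.68, exceeded the single probe set SD and had the same sign. Zfhx3, a large factor with several homeodomains and zinc fingers, had 794 in the null against 757 in the control array, a log2 ratio of 0.07. Its other 4 probe sets ranged from -0.36 to 0.41.

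The atypical protein encoded by Hopx has a homeodomain that does not bind DNA. Hopx had 660 in the null against 877 in the control array, 1.33-fold lower, and 200 against 241 on its second probe set, 1.20-fold lower. Both probe sets had the same sign with log2 ratios of -0.41 and -0.26.

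The CUT class genes were close on their brightest probe sets. Satb1, a chromatin organiser of thymocytes, had 214 in the null against 229 in the control array, a log2 ratio of -0.10, with -0.24 and 0.10 on the other probe sets above the floor. Cux1, the CCAAT displacement protein, had 243 in the null against 251 in the control array, a log2 ratio of -0.04. Its other 4 probe sets above the floor spread from -0.86 to 0.23, the widest range of any of the 14 genes with at least 2 probe sets above both floors. The lowest of them had 40.0 in the null against 72.5 in the control array.

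Six5, which lies beside the myotonic dystrophy kinase gene in mammals, had 177 in the null against 132 in the control array, 1.34-fold higher, while Six2 and Six4 were under the floor on 5 probe sets. Lhx6, known from interneurons of the forebrain, had 33.8 in the null against 54.1 in the control array, 1.60-fold lower but with a null signal close to the floor of 30.1. Adding a constant of 30 to each signal in place of the floor brought its log2 ratio of -0.68 to -0.40. The Lhx6 ratio is thus that of a dim probe set.

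In all, 24 of the 51 genes were under the floor on each of their 37 probe sets, against 6352 of all 18193 genes. The signals of these 24 were at most 29.1 in the null and 28.5 in the control array. Besides Msx3, Dlx1 to Dlx4, Six2, Six4, Emx1, Barx1 and Barx2, they were the 6 Iroquois genes Irx1, Irx2, Irx3, Irx4, Irx5 and Irx6, which pattern limb, heart and gonad. Their signals were 0.468 to 25.4 in the null and 1.96 to 17.4 in the control array, the highest being Irx3 in the null array. The LIM genes Lhx1, Lhx2, Lhx8 and Lhx9 had signals of 0.133 to 10.9 in the null and 0.136 to 5.91 in the control array. The paired-like genes Pitx1, Alx1, Alx4 and Shox2, which act in limb, face and heart, had 1.51 to 13.4 in the null and 1.31 to 7.86 in the control array. No ratio is given for these genes because neither signal reached the floor.

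How far the probe sets of 1 gene disagreed can be set against the arrays as a whole. Of the 14 homeobox genes with at least 2 probe sets above both floors, 7 had a single sign, 5 higher and 2 lower, and 7 had both signs. On their 2 brightest probe sets 9 of 14 genes (64.3%) had 1 sign, against 63.9% for the 4690 genes of the arrays measured in this way, and the SD of a single probe set was 0.33 against 0.27. The genes with a single sign were Prrx1, Pbx3, Meis1, Tshz1 and Zeb1, all higher, and Tshz2 and Hopx, both lower.

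Further homeobox genes outside the Hox clusters were mostly dim. Of 98 such genes on the array, 84 were under the floor in both arrays by their brightest probe set, against 6360 of all 18193 genes. Of the other 14, 0 passed 2-fold, against 3.39% of all genes. Sebox, a paired-like gene of oocytes, reached the floor in null cells alone, with 48.7 in the null against 6.09 in the control array, at least 1.57-fold higher, a direction fixed by the floor. With a constant of 30 added in place of the floor it was past 2-fold. The highest ratio among those above both floors was that of Tshz3, also a teashirt gene, with 437 in the null against 313 in the control array, a log2 ratio of 0.48. The lowest was that of Zhx3, a zinc finger and homeobox repressor, with 125 against 209, a log2 ratio of -0.74. The median was -0.08 over 14 genes, against 0.02 over all genes.

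Partners and corepressors of homeodomain proteins were measured in 19 of 23 cases, and 1 was past 2-fold, in the higher direction, against 1.59% of all genes higher and 3.39% in either direction. Eya1, a coactivator and phosphatase that works with proteins of the Six2 family, had 115 in the null against 57.2 in the control array, barely past the threshold, and it dropped out with a floor at the 65th percentile or with a constant of 30 added. The Groucho family corepressor gene Tle4 had 226 in the null against 134 in the control array, a log2 ratio of 0.75. The lowest ratio was that of another Groucho gene, Tle2, with 42.6 against 67.1, a log2 ratio of -0.66. The list's median was 0.06 against 0.02 over all genes.

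BMP signalling genes, which act upstream of Msx genes, showed 0 of 20 past 2-fold in either direction; with 3.39% of all genes past it, a count of 0 in a list of this size is near the background. Bmp7, a ligand, was the highest, with 243 in the null against 125 in the control array, 1.94-fold higher. Fst, the secreted activin and BMP antagonist follistatin, was the lowest, with 780 in the null against 1423 in the control array, 1.82-fold lower. Bmp2, the ligand that drives the decidual reaction, had 182 in the null against 202 in the control array, a log2 ratio of -0.15. The BMP-induced inhibitor genes Id1, Id2 and Id3 had 0.37, -0.27 and -0.14, and the median of the list was -0.05.

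**Figure D4:**
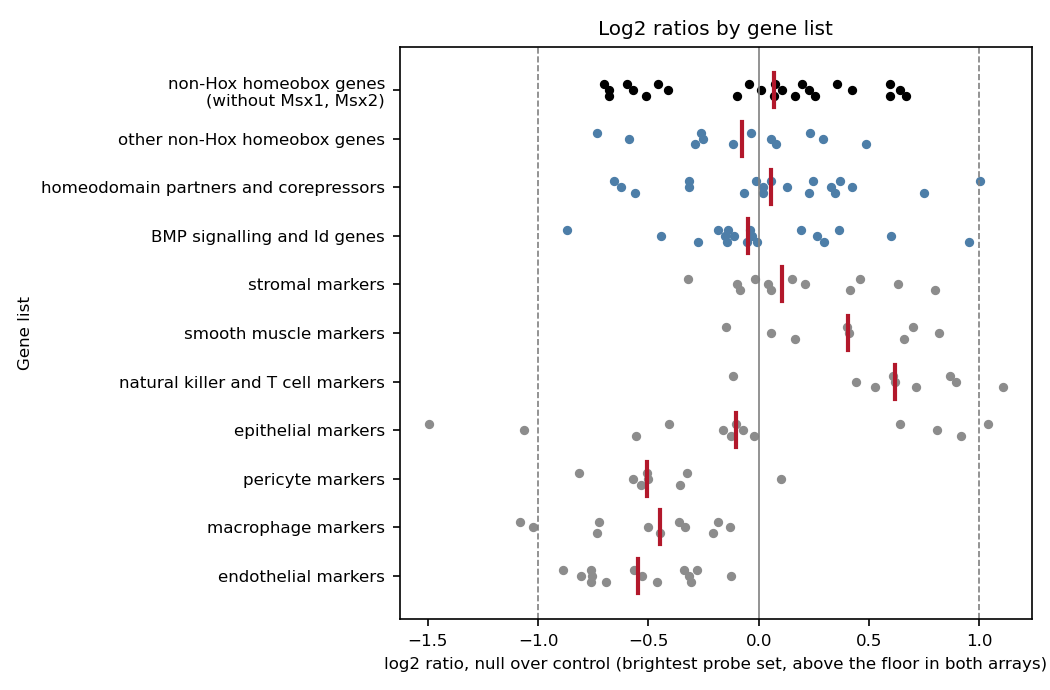
Log2 ratio of null over control by gene list, 1 point per gene on its brightest probe set where that was above both floors, with the median of each list as a red bar and 2-fold as dashed lines. The homeobox genes without Msx1 and Msx2 spread from -0.70 to 0.67 around a median of 0.07. The endothelial, pericyte and macrophage markers lie mostly left of 0 and the natural killer and T cell and smooth muscle markers mostly right of it. The gland list, with a median of -2.18 over the 5 genes above both floors, and the mesothelial list are not plotted.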

How the data were processed

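RNA of uterine stromal cells was pooled per genotype and hybridized to 1 Affymetrix array per genotype, per the series design text. Per the submitters' processing notes, the deposited linear signal intensities come from MAS5, run by the authors in Affymetrix Expression Console 1. Trimmed by 2% at either end, both arrays had a mean signal of 150.0, the mark of scaling to a shared target. Background and scaling settings, detection calls and a genome build for the probes are not given in the sources used here. The MAS5 method subtracts mismatch signal, which makes ratios between dim signals unstable.

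Probe sets were named through the platform annotation. It gave 1 symbol for 34945 probe sets, several for 932 and none for 9160, and 64 were Affymetrix control probe sets. Only probe sets with 1 symbol were used. No further scaling was applied before taking log2, and every ratio is null over control. The 50th percentile of each array's non-control probe sets served as a signal floor, probe sets with 1 or both signals above it were used, and lower signals were raised to it. Calls were made by size alone, at 2-fold. For gene counts the probe set with the highest mean over both log2 signals stood for its gene. With 1 array per genotype no p-value was computed, and the number of arrays limits the precision.

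The members were chosen by gene family and not by a signal threshold, but they, the companion and marker lists and the settings were all chosen with earlier results of these data known. Every member was to be named: all probe sets of Msx1, Msx2 and Msx3, the brightest probe set of each other member above the floor, and further probe sets past 2-fold or of opposite sign. From companion lists the genes past 2-fold and the extremes were to be named. Other genes and probe sets named, and the motifs, were chosen after their values were seen. The calling code was tested on simulated data. Python 3.11.15, numpy 2.4.6 and pandas 2.3.3 were used. Alternatives to the floor, scaling, probe set choice, threshold and treatment of dim signals were computed. Promoter sequences are from the RefSeq table of build GRCm38.p6, which held 35 of the 51 members.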

Additional observations from a re-analysis of the deposited data

How the results depend on the processing

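The 3 lower calls of Msx1 and Msx2 did not need the floor: with a constant of 30 added in its place 3 member probe sets and 2 genes were lower and 0 higher, and with no floor their log2 ratios were -6.10, -7.29 and -2.14. With no floor, 15 member probe sets were higher and 14 lower, or 8 and 5 genes, since ratios between dim signals were then counted. The further homeobox genes then had 25 higher and 17 lower with a median of 0.076, the partners 2 lower, and the BMP list 1 higher and 1 lower. With a floor at the 65th percentile Msx2 was no longer measured and 1 member gene was lower, the partner list had 0 higher with a median of 0.18, and the further homeobox genes had a median of 0.055. Quantile normalization gave 1 higher member probe set, that of Prrx1. With a constant of 30 added to each signal, 1 further homeobox gene, Sebox, was higher and 0 partners were. At 1.5-fold, 6 member probe sets were higher and 10 lower, or 4 and 6 genes, with Msx1 and Msx2 among the lower. Of the 55 member probe sets above both floors 6 were higher and 7 lower, against 1046 and 1374 of all 18699. The further homeobox genes had 1 higher and 2 lower, the partners 2 and 2, and the BMP list 3 and 1. Over all genes 6.79% were higher and 6.92% lower at 1.5-fold. Some of these settings change which probe sets are counted, and some change the ratios themselves. Shares over all probe sets were not computed with no floor, the higher floor, quantile normalization or the added constant. Counts under those settings therefore cannot be set against the arrays. Of 323 recomputed log2 ratios of member probe sets, 312 moved by less than the single probe set SD, 11 moved further, and 1 changed sign, a Pbx3 probe set at 0.05. Those that moved further belonged to Msx1, Msx2, Hlx, Prrx1, Lhx6 and Cux1. Many of the 323 could not move far, so the tally says little about robustness. Dropping the floor leaves ratios above both floors as they were, as does leaving out other probe sets, and centring shifts all ratios by the same small amount. Probe sets that a setting removed are not among the 323. The median log2 ratio of all probe sets above both floors was -0.0055, and 0.0047 after quantile normalization. No paired analysis was possible because each genotype had 1 array.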

Other observations

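Markers of other cell types differed between the pools as well, and these values belong to none of the comparisons above. Their part in the values of the homeobox genes was not tested. Of 8 pericyte markers 7 were lower, with summed signals of 7746 in the null and 10840 in the control array and a median log2 ratio of -0.50. Of the 9 natural killer and T cell markers above the floor in both arrays 8 were higher, with a median of 0.62, with Gzma at 0.89 and Cd3g, the lower one, at -0.12. Of the T cell genes of this list Cd3d had 82.2 in the null against 38.1 in the control array, the largest ratio of the list and past 2-fold, and Cd3g had 87.8 against 95.2, while Cd8a, Cd4 and Cd3e did not reach the floor in either. The mesothelial genes Lrrn4, Msln and Upk3b did not reach it either, Upk1b had 49.7 in the null against 49.9 in the control array, and Wt1, which stroma also makes, had 491 in the null against 292 in the control array.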
